A study of Mus musculus with 24 samples.

Results

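The genes described here encode extracellular matrix proteins and the enzymes that cut them, and were measured in mouse cortical neuron cultures. They were taken by symbol from the probe sets annotated to a single gene: collagen chains, laminin chains, ADAMTS and ADAMTS-like proteins, matrix metalloproteinases (MMPs), tissue inhibitors of metalloproteinases (TIMPs), the thrombospondins Thbs1 to Thbs4, the tenascins Tnc and Tnr, fibronectin Fn1 and Cthrc1. This gave 102 of the 18194 genes on the arrays, measured by 192 of the 34958 probe sets that name 1 gene. The rule itself used no measured value, but it was chosen with earlier results of these data known.

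RNA came from primary cortical neurons of E18 mouse embryos that had grown for 1 week before a treatment lasting 2 h or 12 h. At each time 3 Affymetrix arrays were made from cultures given BDNF at 50 ng per ml together with IBET858 at 1 µM, 3 from cultures given BDNF alone, 3 from cultures given IBET858 alone and 3 from control cultures given the solvent DMSO. IBET858 inhibits BET proteins, readers of histone acetylation that promote transcription, and BDNF is a neurotrophin that acts through the TrkB receptor. The sources used here give no strain, sex, number of animals or dose of DMSO, and whether the 3 arrays of a group are independent cultures is not stated. The p-values therefore reflect variation among these arrays, which may be technical.

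The matrix of the cortex is unlike that of connective tissue. It is built on hyaluronan, on proteoglycans such as aggrecan and versican, and on tenascins that link them, while fibrillar collagen is scarce outside the meninges and vessels, and laminins and type IV collagen form basement membranes around vessels and under the pia. Proteases remodel this matrix when circuits form or change: ADAMTS enzymes cut the core proteins of aggrecan and versican, MMPs cut a wide range of matrix and surface proteins, and TIMPs block MMPs and some ADAMTS enzymes. Thrombospondins are secreted mainly by astrocytes and promote synapse formation.

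Of the members, 70 had an entry in the RefSeq promoter table of assembly GRCm38.p6 and 32 had none. The 250 bases before the start site are shown for 5 members, chosen after their values were seen: Tnc, Adamts1 and Timp1, which BDNF raised, and Mmp10 and Mmp13, which share a gene cluster and differed in response. Each is written 5′ to 3′ on the strand of its gene, and capitals mark the motifs found in it by a search of both strands.
Tnc, chr4:64047016-64047265, minus strand: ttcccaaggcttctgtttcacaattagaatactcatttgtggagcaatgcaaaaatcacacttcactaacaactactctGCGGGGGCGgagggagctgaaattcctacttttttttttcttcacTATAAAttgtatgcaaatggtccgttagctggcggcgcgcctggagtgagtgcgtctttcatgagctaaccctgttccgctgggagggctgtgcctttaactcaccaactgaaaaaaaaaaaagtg
Adamts1, chr16:85803114-85803363, minus strand: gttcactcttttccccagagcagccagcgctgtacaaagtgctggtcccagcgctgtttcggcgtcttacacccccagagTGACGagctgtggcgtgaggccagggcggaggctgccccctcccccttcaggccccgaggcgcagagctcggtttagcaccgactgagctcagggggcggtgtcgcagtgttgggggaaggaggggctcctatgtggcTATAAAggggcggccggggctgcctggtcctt
Timp1, chrX:20869916-20870165, plus strand: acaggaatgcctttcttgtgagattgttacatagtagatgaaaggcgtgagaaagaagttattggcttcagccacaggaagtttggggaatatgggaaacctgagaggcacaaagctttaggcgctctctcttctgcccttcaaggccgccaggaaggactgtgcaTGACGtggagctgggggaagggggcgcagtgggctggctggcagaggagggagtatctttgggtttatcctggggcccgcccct
Mmp10, chr9:7502092-7502341, plus strand: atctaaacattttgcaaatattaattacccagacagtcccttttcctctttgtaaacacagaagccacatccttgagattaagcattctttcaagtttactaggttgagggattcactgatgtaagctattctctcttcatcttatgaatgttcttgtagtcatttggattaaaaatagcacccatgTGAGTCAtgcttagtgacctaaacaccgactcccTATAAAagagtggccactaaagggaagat
Mmp13, chr9:7272264-7272513, plus strand: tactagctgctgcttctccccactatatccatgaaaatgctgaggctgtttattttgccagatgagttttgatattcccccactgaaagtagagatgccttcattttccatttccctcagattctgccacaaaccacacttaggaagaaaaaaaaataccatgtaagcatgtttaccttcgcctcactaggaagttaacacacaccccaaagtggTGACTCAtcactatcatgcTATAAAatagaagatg

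The motifs searched, over the 250 bases before the start and the 50 after it, were the AP-1 site TGANTCA, the cyclic AMP response element core TGACG with its full form TGACGTCA, the EGR site GCGNGGGCG, the CArG box bound by serum response factor, and TATAAA. The core lies inside the full form, so a full form counts for both. AP-1 sites stood in 8 of the 70 member promoters (11.4%) and in 7.93% of all 27025 promoters. Of these 8, 7 belonged to MMPs on chromosome 9 (Mmp1a, Mmp1b, Mmp3, Mmp7, Mmp10, Mmp13 and Mmp20), and each of the 7 also held TATAAA. The eighth was Col6a1. In the sequences above, the AP-1 site of Mmp10 spans positions -63 to -57 from the start site and that of Mmp13 spans -35 to -29. TATAAA was found in 17 member promoters (24.3%) and in 14.2% of all, the EGR site in 8 (11.4%) and in 5.55% of all, the core TGACG in 12 (17.1%) and in 21% of all, and the CArG box in 2 (2.86%) and in 1.57% of all. The full form TGACGTCA stood in 1 member promoter (1.43%) and in 1.88% of all. Tnc has 2 entries in the table, and the sequence shown is the first of them. These matches describe letters in a window and were not tested as binding sites.

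The deposited log2 values are centred so that each probe set has a median of 0 over the 24 arrays. A value therefore says whether a gene was above or below its own median on an array. It does not say how abundant the transcript was, so levels were not compared between genes, and whether a defining marker of neurons or of another cell type was present could not be read. A gene was called changed at an adjusted p under 0.05 in a limma fit over all 18194 genes, with Benjamini-Hochberg adjustment, and each difference below is in log2 units with the standard error (SE) of that fit (n = 3 arrays per group). In cultures of mixed cells, fewer cells of a type and less RNA per cell cannot be told apart.

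Arrays of a group lay close together for the member genes, with a root mean square deviation from the group mean of 0.0752 to 0.156 log2 units on 23 arrays. DMSO at 2 h replicate 1 stood apart at 0.273. On that array Fn1, fibronectin, reached 2.30, against 0.06 and -0.09 on the other DMSO arrays at 2 h, and Lama2, the laminin alpha chain of muscle and brain vessels, reached 1.25, against 0.23 and 0.10. The mean of 8 astrocyte markers was 0.492 on the same array, against 0.067 and -0.02 on the other 2. DMSO at 12 h replicate 1 also had the highest astrocyte mean of its group, at 0.394, against -0.011 and -0.082. The part of these markers in the member values was not tested. Over all genes 2 arrays stood apart by this deviation, DMSO at 2 h replicate 1 at 0.178 and IBET858 at 12 h replicate 3 at 0.159. Some results that rest on DMSO replicate 1 of either time are given without it as well. Others include it and are given only with it, among them BDNF against DMSO at 2 h for Cthrc1 and Adamts1.

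The members that rose most with BDNF at 12 h were Adamts1, Cthrc1, Col9a1, Tnc and Lama1. When IBET858 was given with BDNF, 4 of these 5 were lower than with BDNF alone, and Tnc was higher. The 5 were picked on the same BDNF arrays, which favours a fall in this second comparison. IBET858 alone was also lower than DMSO at 12 h for Adamts1 (-1.26), Cthrc1 (-0.69), Col9a1 (-0.30), Tnc (-1.18) and Lama1 (-0.31). BDNF against DMSO at 2 h called 22 members, 16 higher and 6 lower, that is 21.6% of the members where 27.9% of all genes were called. At 12 h it called 38 members, 22 higher and 16 lower, 37.3% against 41% of all genes. IBET858 against DMSO called 7 members at 2 h, 3 higher and 4 lower (6.86%, against 14.9% of all genes, of which 5.64% were higher and 9.27% lower). At 12 h it called 37, 11 higher and 26 lower (36.3%, against 48.7% of all genes). BDNF with IBET858 against BDNF alone called 16 members at 2 h, 7 higher and 9 lower (15.7%, against 27.1% of all genes), and 35 at 12 h, 10 higher and 25 lower (34.3%, against 46.8% of all genes). Of all genes this comparison called 12.2% higher and 14.9% lower at 2 h, and 21.1% higher and 25.6% lower at 12 h. In each of these 6 comparisons the share of members called was below the share of all genes called, and the median change of the members, which moved in both directions, lay between -0.045 and 0.079, against -0.012 to 0.046 for all genes.

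**Figure D1:**
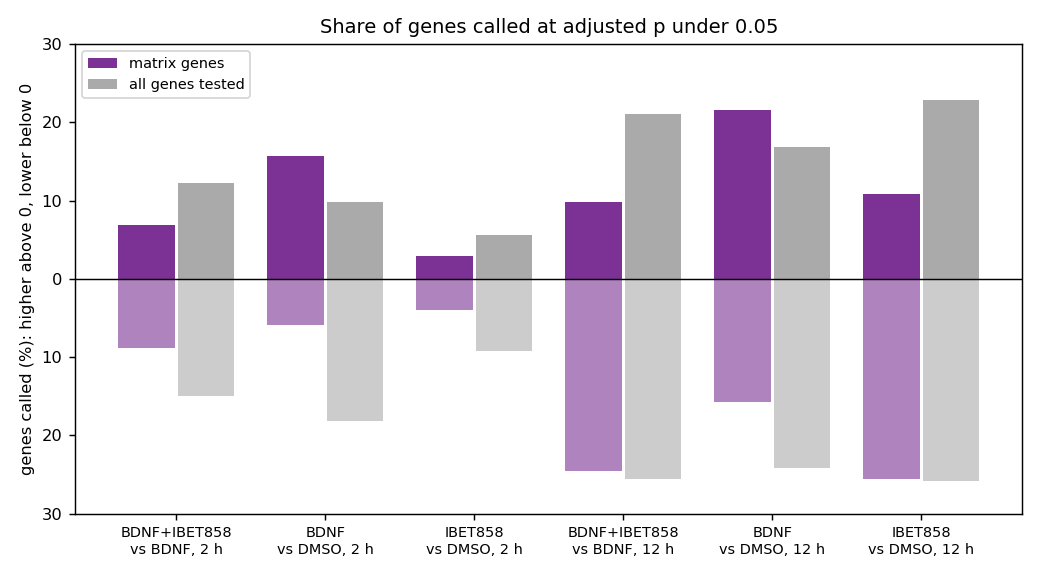
Share of genes called in 6 comparisons (percent, adjusted p under 0.05 in limma), with genes called higher above 0 and genes called lower below 0, for the 102 matrix genes (purple) and all 18194 genes tested (grey). In BDNF against DMSO the matrix genes leaned to higher calls, 15.7% at 2 h against 9.79% of all genes and 21.6% at 12 h against 16.9%, while in IBET858 against DMSO at 12 h 10.8% of them were called higher against 22.9% of all genes.

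Direction differed from that of all genes in some comparisons. Of the members, 15.7% were called higher with BDNF at 2 h, against 9.79% of all genes, and 5.88% were called lower, against 18.1%. With IBET858 at 12 h, 10.8% were called higher, against 22.9% of all genes, and 25.5% lower, against 25.8%. These shares describe 102 genes chosen by symbol and were not tested against those of other genes.

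Of the 102 members, 65 were called in at least 1 of the 6 comparisons above (63.7%, against 73.1% of all genes). They included 7 of 8 glycoproteins, 12 of 15 ADAMTS proteases, 3 of 5 ADAMTS-like proteins, 6 of 10 laminins, 10 of 18 MMPs, 3 of 4 TIMPs, 7 of 11 fibrillar collagens, 4 of 11 basement membrane and network collagens and 13 of 20 other collagens. A called change of at least 1 log2 unit was found for 15 members: Tnc, Tnr, Thbs1, Thbs3, Cthrc1, Adamts1, Adamts15, Adamts20, Adamtsl2, Col9a1, Lama1, Lama2, Timp1, Mmp10 and Mmp17. The share of all genes with a change of this size is not given here, so this count describes the members only.

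**Figure D2:**
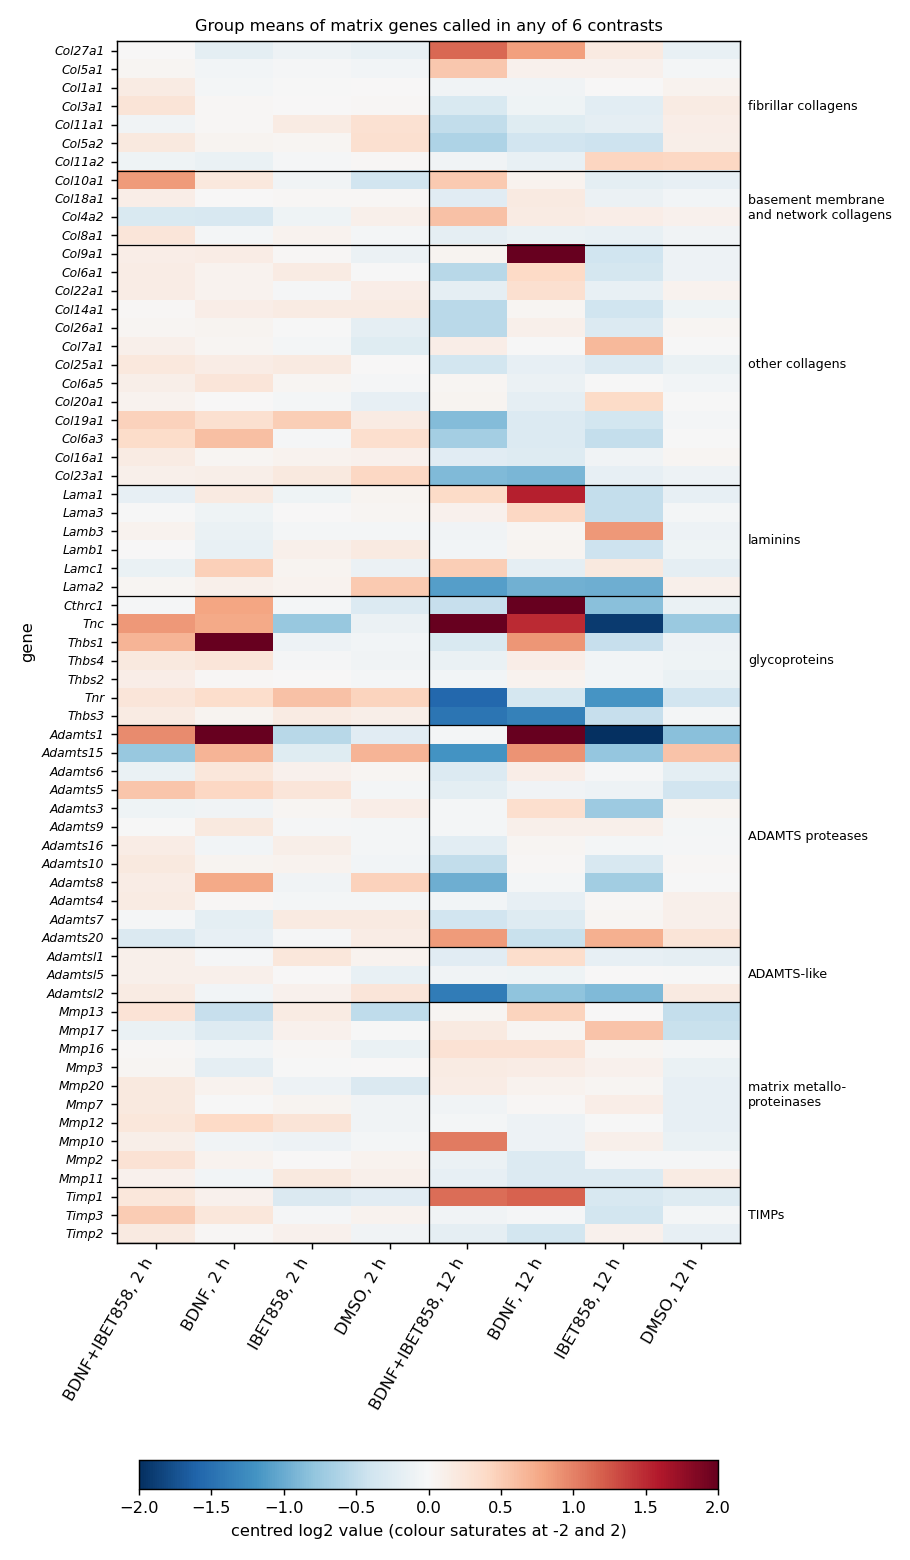
Mean centred log2 value (colour, blue below and red above the median of the gene, saturating at -2 and 2) of the 65 called matrix genes in the 8 groups of 3 arrays, by family. The strongest colours lie in Tnc, Cthrc1 and Thbs1 among the glycoproteins, where Tnr and Thbs3 also turn dark blue in some groups at 12 h, and in Adamts1, Col9a1 and Lama1.

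Among the glycoproteins, Tnc, tenascin C, had the widest range of group means over the 8 groups, at 5.78. Tnc encodes a large adhesion-modulating protein of the developing brain that returns after injury. At 2 h Tnc was 0.92, 0.74 and 0.93 on the arrays of BDNF with IBET858, 0.78, 0.65 and 0.83 with BDNF, -0.66, -0.83 and -0.78 with IBET858, and 0.58, -0.48 and -0.47 with DMSO. Both BDNF groups lay above all other arrays, and the high DMSO value was that of replicate 1. At 12 h Tnc was 4.03, 3.79 and 3.74 with BDNF and IBET858, 1.65, 1.40 and 1.43 with BDNF, -1.93, -1.96 and -1.87 with IBET858, and -0.38, -0.86 and -0.99 with DMSO. The 4 groups did not overlap at 12 h, and their order ran from the combination at the top to IBET858 alone at the bottom.

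BDNF raised Tnc by 0.88 ± 0.192 at 2 h (adjusted p = 0.00128) and by 2.23 ± 0.192 at 12 h, which is 4.7-fold (adjusted p = 5.22e-09). IBET858 alone lowered it at 12 h, by -1.18 ± 0.192 (adjusted p = 2.37e-05). With BDNF present the sign of the IBET858 difference was the opposite: Tnc was higher by 2.36 ± 0.192 in BDNF with IBET858 than in BDNF at 12 h, 5.15-fold (adjusted p = 1.01e-09). In IBET858-treated cultures BDNF raised Tnc by 5.78 ± 0.192 at 12 h, 54.8-fold (adjusted p = 1.69e-15), and the interaction of the agents was 3.54 ± 0.271 (adjusted p = 9.35e-09). At 2 h the combination did not differ detectably from BDNF, with a difference of 0.11 ± 0.192 (adjusted p = 0.716).

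Tnc has 2 probe sets that agreed on the 12 h results and not at 2 h. At 12 h they gave 3.02 and 1.45 for BDNF against DMSO, and 2.15 and 2.57 for BDNF with IBET858 against BDNF. For BDNF against DMSO at 2 h they gave -0.05 and 1.81. The lower Tnc with IBET858 at 2 h, -0.64 ± 0.192 (adjusted p = 0.0268), rested on DMSO replicate 1: without that array it was -0.284 (adjusted p = 0.173). Leaving out IBET858 replicate 2 or 3 also ended the call (adjusted p = 0.0912 and 0.0765).

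Tenascin R, the tenascin of perineuronal nets, did not follow tenascin C. At 12 h Tnr was -1.55, -1.59 and -1.56 with BDNF and IBET858, -0.46, -0.37 and -0.21 with BDNF, -1.01, -1.33 and -1.22 with IBET858, and -0.74, -0.24 and -0.15 with DMSO. All arrays with IBET858 lay below all arrays without it. IBET858 lowered Tnr by -0.81 ± 0.11 against DMSO (adjusted p = 2.53e-06) and by -1.22 ± 0.11 against BDNF (adjusted p = 5.28e-09), while BDNF against DMSO gave 0.03 ± 0.11 (adjusted p = 0.85). Tnr was also lower in DMSO cultures at 12 h than at 2 h, by -0.83 ± 0.11 (adjusted p = 8.84e-05).

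Thbs1, a matricellular glycoprotein that promotes synapse formation, gave the sharpest early response of the glycoproteins. At 2 h Thbs1 was 0.69, 0.64 and 0.70 with BDNF and IBET858, 2.14, 1.98 and 2.16 with BDNF, -0.08, -0.20 and -0.04 with IBET858, and -0.16, -0.09 and 0.10 with DMSO. The BDNF arrays stood well above all others, those of the combination came next, and IBET858 and DMSO overlapped. BDNF raised Thbs1 by 2.14 ± 0.0925, 4.42-fold (adjusted p = 1.7e-13), and adding IBET858 lowered it by -1.42 ± 0.0925 against BDNF (adjusted p = 9.03e-11). The interaction was -1.36 ± 0.131 (adjusted p = 3.53e-07), and without BDNF the IBET858 difference was -0.06 ± 0.0925 (adjusted p = 0.742).

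By 12 h Thbs1 had partly returned in BDNF cultures. It was -0.11, -0.48 and -0.30 with BDNF and IBET858, 0.81, 1.07 and 0.76 with BDNF, -0.54, -0.33 and -0.51 with IBET858, and -0.12, -0.10 and -0.07 with DMSO. Only the BDNF arrays lay above 0. BDNF against DMSO gave 0.98 ± 0.0925 (adjusted p = 2.15e-08), and the combination against IBET858 gave 0.16 ± 0.0925 (adjusted p = 0.183). The 2 probe sets of Thbs1 correlated at 0.951 over the 24 arrays and both rose with BDNF at 12 h, by 0.73 and 1.23.

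Cthrc1, a secreted collagen triple helix repeat protein, showed the opposite time course. At 2 h Cthrc1 was -0.10, 0.12 and -0.07 with BDNF and IBET858, 0.72, 0.79 and 0.88 with BDNF, 0.07, -0.27 and 0.06 with IBET858, and -0.90, 0.03 and 0.08 with DMSO. By 12 h its values were -0.03, -0.47 and -0.90 with BDNF and IBET858, 3.22, 3.06 and 3.10 with BDNF, -0.87, -0.84 and -0.79 with IBET858, and -0.27, 0.03 and -0.17 with DMSO. The BDNF arrays alone were high at both times, and at 12 h the combination overlapped with DMSO and with IBET858.

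BDNF raised Cthrc1 by 1.06 ± 0.199 at 2 h (adjusted p = 0.000276) and by 3.27 ± 0.199 at 12 h, 9.62-fold (adjusted p = 3.15e-11). Adding IBET858 lowered it against BDNF by -0.81 ± 0.199 at 2 h (adjusted p = 0.00347) and by -3.59 ± 0.199 at 12 h, 12.1-fold (adjusted p = 2.64e-12). BDNF no longer gave a call in IBET858-treated cultures at 12 h, where the difference was 0.37 ± 0.199 (adjusted p = 0.156). The interaction at 12 h was -2.90 ± 0.281 (adjusted p = 3.53e-07). At 2 h it was -1.03 ± 0.281 (adjusted p = 0.0227), and leaving out IBET858 replicate 1 or 3, BDNF replicate 3, or replicate 1 or 3 of the combination ended the call, with an adjusted p of at most 0.0605.

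Thbs3, a thrombospondin of skeletal tissue that forms pentamers, fell with BDNF whether IBET858 was present or not. At 12 h Thbs3 was -1.89, -1.21 and -1.28 with BDNF and IBET858, -1.41, -1.34 and -1.33 with BDNF, -0.46, -0.52 and -0.41 with IBET858, and 0.05, -0.02 and -0.17 with DMSO. All 6 BDNF arrays lay below the 6 without BDNF. The change was -1.31 ± 0.113 against DMSO (adjusted p = 5.78e-09) and -0.997 ± 0.113 in IBET858-treated cultures (adjusted p = 3.65e-07), with an interaction of 0.32 ± 0.16 (adjusted p = 0.204). At 2 h the BDNF difference was -0.07 ± 0.113 (adjusted p = 0.736).

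The remaining glycoproteins moved little. Thbs4 rose by 0.31 ± 0.107 with BDNF at 2 h (adjusted p = 0.0338) and Thbs2 by 0.20 ± 0.0753 at 12 h (adjusted p = 0.0428), and leaving out single arrays ended both calls (Thbs4 0.236, adjusted p = 0.17, without BDNF replicate 1, and Thbs2 0.131, adjusted p = 0.232, without BDNF replicate 2). Fn1, fibronectin, was not called in any comparison. Its differences from DMSO at 2 h, -0.86 ± 0.378 with BDNF (adjusted p = 0.103) and -0.84 ± 0.378 with IBET858 (adjusted p = 0.156), carried the single high DMSO array described above, and at 12 h Fn1 lay between -0.39 and 0.64 on all 12 arrays.

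**Figure D3:**
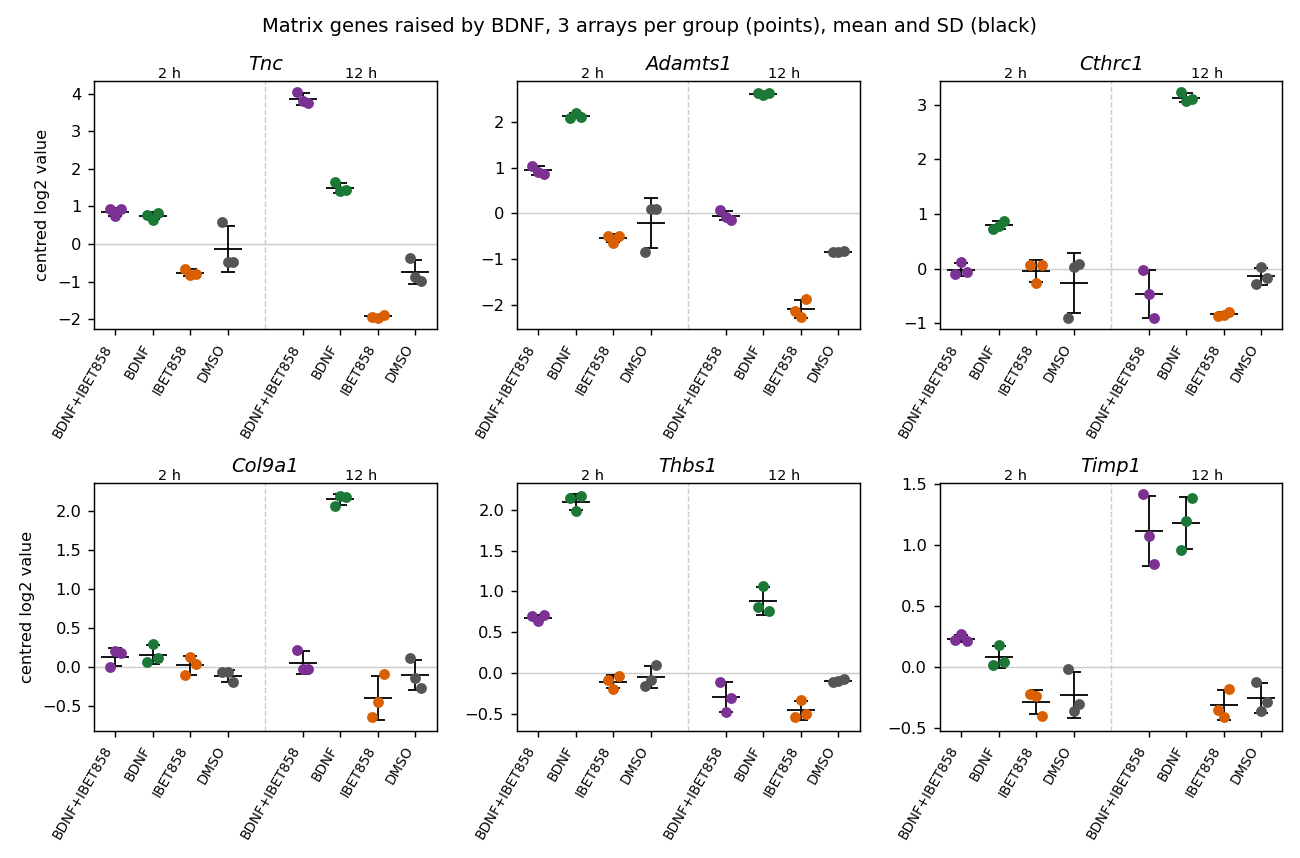
Centred log2 values of 6 matrix genes that BDNF raised, at 2 h (left of the dashed line) and 12 h (right), for BDNF with IBET858, BDNF, IBET858 and DMSO. Points are the 3 arrays of a group and black marks the mean and SD; at 12 h IBET858 with BDNF sits far above BDNF for Tnc, level with it for Timp1, and below it for Adamts1, Cthrc1, Col9a1 and Thbs1.

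Among the proteases, Adamts1 responded furthest to BDNF. Adamts1 cleaves aggrecan and versican. At 2 h it was 1.05, 0.91 and 0.87 with BDNF and IBET858, 2.09, 2.20 and 2.13 with BDNF, -0.50, -0.65 and -0.49 with IBET858, and -0.85, 0.10 and 0.09 with DMSO. The 12 h values were 0.07, -0.07 and -0.13 with BDNF and IBET858, 2.64, 2.60 and 2.65 with BDNF, -2.13, -2.28 and -1.89 with IBET858, and -0.85, -0.85 and -0.81 with DMSO. The 4 groups stood apart at 12 h, with IBET858 alone at the bottom and the combination between DMSO and BDNF.

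BDNF raised Adamts1 by 2.36 ± 0.16 at 2 h, 5.13-fold (adjusted p = 2.72e-10), and by 3.47 ± 0.16 at 12 h, 11.1-fold (adjusted p = 3.6e-13). IBET858 lowered it at 12 h by -1.26 ± 0.16 against DMSO (adjusted p = 9.07e-07) and by -2.68 ± 0.16 against BDNF, 6.39-fold (adjusted p = 8.16e-12). BDNF still raised Adamts1 in IBET858-treated cultures, by 1.49 ± 0.16 at 2 h (adjusted p = 4.05e-07) and by 2.05 ± 0.16 at 12 h (adjusted p = 1.44e-09). The interaction was -0.87 ± 0.226 at 2 h (adjusted p = 0.0165), or -0.553 without DMSO replicate 1, and -1.41 ± 0.226 at 12 h (adjusted p = 0.000153).

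Adamts15, which also cleaves versican and aggrecan, was lower with IBET858 at both times. At 2 h Adamts15 was -0.64, -0.95 and -0.71 with BDNF and IBET858, 0.64, 0.80 and 0.60 with BDNF, -0.11, -0.36 and -0.25 with IBET858, and 0.11, 0.85 and 1.05 with DMSO. At 12 h it was -0.94, -1.25 and -1.40 with BDNF and IBET858, 1.00, 0.95 and 0.75 with BDNF, -0.66, -0.98 and -0.68 with IBET858, and 0.27, 0.75 and 0.70 with DMSO. At both times all arrays with IBET858 lay below 0 and all arrays without it above 0.

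IBET858 lowered Adamts15 against DMSO by -0.91 ± 0.179 at 2 h (adjusted p = 0.000842) and by -1.35 ± 0.179 at 12 h (adjusted p = 1.73e-06). Against BDNF the fall was -1.44 ± 0.179 at 2 h (adjusted p = 1.52e-06) and -2.10 ± 0.179 at 12 h (adjusted p = 2.16e-09). BDNF against DMSO gave 0.00 ± 0.179 at 2 h (adjusted p = 0.991) and 0.33 ± 0.179 at 12 h (adjusted p = 0.163). In IBET858-treated cultures BDNF lowered Adamts15 at 2 h, by -0.52 ± 0.179 (adjusted p = 0.0406). That 2 h call did not hold in every refit that left out a single array. At 12 h the difference was -0.42 ± 0.179 (adjusted p = 0.0681). The interaction at 12 h was -0.75 ± 0.253 (adjusted p = 0.0478), and leaving out most single arrays in turn ended that call, with an adjusted p of up to 0.139 without DMSO replicate 1 at 12 h. Its neighbour on chromosome 9, Adamts8, a protease of the same group, was lower with IBET858 in the same 4 comparisons: by -0.55 ± 0.107 and -0.69 ± 0.107 against DMSO at 2 h and 12 h, and by -0.60 ± 0.107 and -0.95 ± 0.107 against BDNF (adjusted p between 1.49e-07 and 0.000835). Adamts5, another aggrecan-cleaving enzyme and the neighbour of Adamts1 on chromosome 16, rose with BDNF at 2 h by 0.46 ± 0.108 (adjusted p = 0.00239), or by 0.265 with DMSO replicate 1 left out.

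Adamts20, a versican-cleaving protease, moved the other way. At 12 h Adamts20 was 0.79, 0.78 and 0.99 with BDNF and IBET858, -0.49, -0.44 and -0.43 with BDNF, 0.81, 0.75 and 0.56 with IBET858, and 0.28, 0.36 and 0.12 with DMSO. Every array with IBET858 lay above every DMSO array, and every BDNF array lay below. IBET858 raised it by 0.45 ± 0.0995 against DMSO (adjusted p = 0.000621) and by 1.30 ± 0.0995 against BDNF (adjusted p = 3.81e-10), while BDNF lowered it by -0.70 ± 0.0995 (adjusted p = 5.4e-06). BDNF had no called effect in IBET858-treated cultures, 0.15 ± 0.0995 (adjusted p = 0.27), and the interaction was 0.85 ± 0.141 (adjusted p = 0.000225).

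Over the 15 ADAMTS proteases, IBET858 at 12 h called 2 higher and 5 lower against DMSO, and 1 higher and 7 lower against BDNF. Over all genes these comparisons called 22.9% higher and 25.8% lower, and 21.1% higher and 25.6% lower. BDNF against DMSO called 3 higher and 2 lower at 2 h, and 4 higher and 3 lower at 12 h. Of all genes it called 9.79% higher and 18.1% lower at 2 h, and 16.9% higher and 24.2% lower at 12 h. Of the 5 ADAMTS-like proteins, which lack a protease domain, Adamtsl2 changed furthest. Adamtsl2 binds fibrillin microfibrils. Its 12 h values were -1.58, -1.46 and -1.18 with BDNF and IBET858, -0.80, -0.74 and -0.88 with BDNF, -1.05, -1.04 and -0.56 with IBET858, and 0.23, 0.16 and 0.13 with DMSO. The DMSO arrays lay above all others. Its change was -0.98 ± 0.12 with BDNF (adjusted p = 8.02e-07) and -1.06 ± 0.12 with IBET858 (adjusted p = 1.76e-07), both against the same DMSO arrays.

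**Figure D4:**
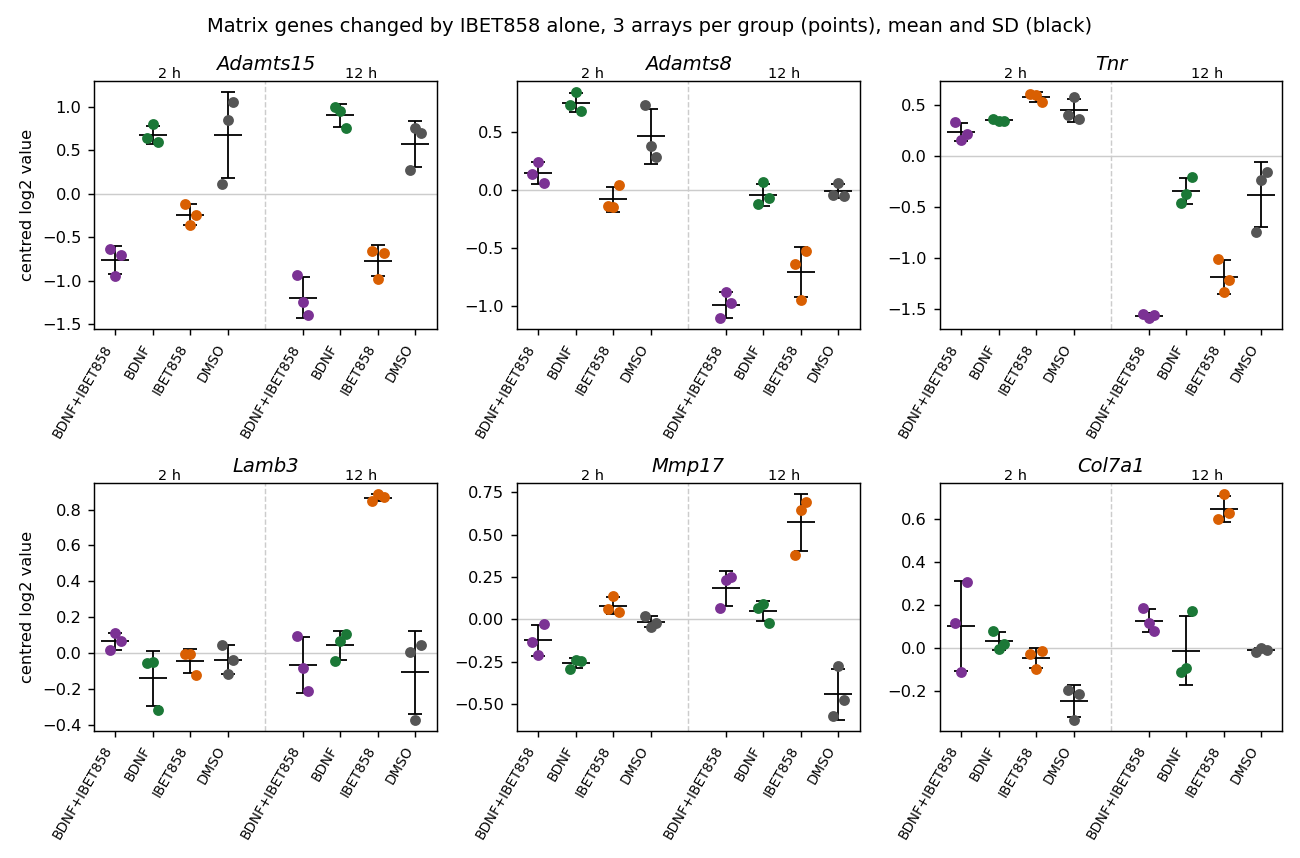
Centred log2 values of 6 matrix genes that IBET858 changed without BDNF, at 2 h (left of the dashed line) and 12 h (right), for BDNF with IBET858, BDNF, IBET858 and DMSO. Points are the 3 arrays of a group and black marks the mean and SD; at 12 h Adamts15, Adamts8 and Tnr were low with IBET858 with or without BDNF, while Lamb3 and Col7a1 were high with IBET858 alone.

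Of the 18 MMPs, 10 were called in at least 1 of the 6 comparisons, where 73.1% of all genes were called. The changes of largest size were those of Mmp10, Mmp17 and Mmp13, each measured by 1 probe set. Mmp10 is a stromelysin, which degrades many non-collagen matrix proteins. At 12 h Mmp10 was 1.12, 0.98 and 1.01 with BDNF and IBET858, -0.46, 0.00 and 0.18 with BDNF, 0.12, 0.18 and -0.01 with IBET858, and -0.17, -0.11 and -0.13 with DMSO. Only the combination was high, and the other 3 groups lay within 0.18 of 0 except for 1 BDNF array at -0.46. Neither agent alone gave a call at 12 h: BDNF against DMSO was 0.04 ± 0.116 (adjusted p = 0.831) and IBET858 against DMSO was 0.23 ± 0.116 (adjusted p = 0.101). Together they raised Mmp10 by 1.13 ± 0.116 against BDNF (adjusted p = 3.63e-08) and by 0.94 ± 0.116 against IBET858 (adjusted p = 1.16e-06), with an interaction of 0.90 ± 0.164 (adjusted p = 0.000627).

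Mmp13, a collagenase encoded in the same run of MMP genes on chromosome 9, was raised by either agent. At 2 h Mmp13 was 0.48, 0.17 and 0.18 with BDNF and IBET858, -0.58, -0.35 and -0.44 with BDNF, -0.01, 0.06 and 0.45 with IBET858, and -0.81, -0.41 and -0.31 with DMSO. Later, at 12 h, it was 0.15, 0.05 and -0.07 with BDNF and IBET858, 0.33, 0.62 and 0.37 with BDNF, 0.24, 0.01 and -0.23 with IBET858, and -0.60, -0.38 and -0.44 with DMSO. At 2 h the arrays with IBET858 were high with or without BDNF, and at 12 h all 3 treatments lay above DMSO. IBET858 raised it by 0.68 ± 0.14 at 2 h (adjusted p = 0.0014) and by 0.48 ± 0.14 at 12 h (adjusted p = 0.00666). BDNF raised it by 0.91 ± 0.14 at 12 h (adjusted p = 1.54e-05) and not detectably at 2 h, with a difference of 0.05 ± 0.14 (adjusted p = 0.834). The interaction at 12 h was -0.88 ± 0.198 (adjusted p = 0.00387).

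The run holds Mmp13, Mmp12, Mmp1b, Mmp3, Mmp1a, Mmp10 and Mmp8 in this order. Mmp12, the macrophage elastase, rose with BDNF at 2 h by 0.46 ± 0.14 (adjusted p = 0.0158), a call that ended without BDNF replicate 2 (adjusted p = 0.0728). Mmp3, a second stromelysin, was higher with BDNF at 12 h by 0.29 ± 0.115 (adjusted p = 0.0496), and leaving out most single arrays in turn ended that call, with an adjusted p of up to 0.181 without BDNF replicate 3. Mmp1a, Mmp1b and Mmp8 were not called in any of the 6 comparisons. Within the run, AP-1 sites near the start were found in Mmp13, Mmp1b, Mmp3, Mmp1a and Mmp10. Any part of these sites in the changes was not tested.

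Mmp17, an MMP held at the cell surface by a lipid anchor, was the MMP that IBET858 raised furthest against DMSO. At 12 h Mmp17 was 0.06, 0.23 and 0.25 with BDNF and IBET858, 0.07, 0.09 and -0.02 with BDNF, 0.38, 0.64 and 0.69 with IBET858, and -0.57, -0.28 and -0.48 with DMSO. The IBET858 arrays were the highest and the DMSO arrays the lowest. The change with IBET858 was 1.01 ± 0.0797, 2.02-fold (adjusted p = 8.37e-10), and the interaction was -0.88 ± 0.113 (adjusted p = 1.29e-05). DMSO itself was lower at 12 h than at 2 h, by -0.43 ± 0.0797 (adjusted p = 0.00203).

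The MMPs most studied in synaptic plasticity, the gelatinases Mmp2 and Mmp9, and the membrane-bound Mmp14 showed small differences. Mmp9 and Mmp14 were not called in any comparison. Mmp9 against DMSO gave 0.12 ± 0.0939 with BDNF at 2 h (adjusted p = 0.411) and -0.04 ± 0.0939 at 12 h (adjusted p = 0.812). Mmp2 was lower with BDNF at 12 h by -0.25 ± 0.0887 (adjusted p = 0.0264), and leaving out any DMSO array or BDNF replicate 1 or 2 ended the call, with an adjusted p of at most 0.141.

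TIMP1, an MMP inhibitor known as an inducible gene in neurons and glia, was the TIMP that changed most. At 2 h Timp1 was 0.22, 0.27 and 0.21 with BDNF and IBET858, 0.02, 0.18 and 0.04 with BDNF, -0.22, -0.24 and -0.40 with IBET858, and -0.02, -0.37 and -0.31 with DMSO. At 12 h it was 1.42, 1.07 and 0.84 with BDNF and IBET858, 0.96, 1.19 and 1.39 with BDNF, -0.35, -0.41 and -0.18 with IBET858, and -0.12, -0.36 and -0.29 with DMSO. All 6 BDNF arrays at 12 h lay far above the 6 without BDNF, and arrays with and without IBET858 overlapped in both.

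BDNF raised Timp1 at 12 h by 1.44 ± 0.123 against DMSO, 2.71-fold (adjusted p = 4.86e-09), and by 1.43 ± 0.123 in IBET858-treated cultures (adjusted p = 6.7e-09). The interaction was -0.01 ± 0.174 (adjusted p = 0.978), and the combination differed from BDNF by -0.07 ± 0.123 (adjusted p = 0.713). Timp3, the inhibitor that binds to matrix, fell with IBET858 against DMSO at 12 h by -0.33 ± 0.0822 (adjusted p = 0.00218). At 2 h Timp3 was higher in the combination than in BDNF, by 0.29 ± 0.0822 (adjusted p = 0.011). Timp2 rose with IBET858 by 0.26 ± 0.0614 (adjusted p = 0.00136) and fell with BDNF by -0.21 ± 0.0614 (adjusted p = 0.00856) at 12 h, the second call ending without DMSO replicate 3 (-0.163, adjusted p = 0.0597). Timp4 was not called in any comparison, and its difference for IBET858 at 12 h was -0.30 ± 0.133 (adjusted p = 0.0659).

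Among the 42 collagen chains a single gene, Col9a1, changed by more than 1 log2 unit. Col9a1 encodes a chain of type IX collagen, which decorates collagen fibrils in cartilage and the eye. At 12 h Col9a1 was 0.22, -0.04 and -0.03 with BDNF and IBET858, 2.07, 2.20 and 2.19 with BDNF, -0.65, -0.46 and -0.10 with IBET858, and 0.11, -0.15 and -0.27 with DMSO. The BDNF arrays stood alone, and the combination overlapped with DMSO. BDNF raised it by 2.25 ± 0.117, 4.77-fold (adjusted p = 2.39e-12), and IBET858 lowered it against BDNF by -2.10 ± 0.117, 4.3-fold (adjusted p = 2.87e-12). The interaction was -1.80 ± 0.166 (adjusted p = 1.54e-07). Its 2 probe sets rose with BDNF by 3.43 and 1.08. The other chains of type IX collagen, Col9a2 and Col9a3, were not called in any of the 6 comparisons.

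The other collagen changes were smaller. Col27a1, a fibrillar chain, rose with BDNF at 12 h by 0.98 ± 0.0746 against DMSO (adjusted p = 8.36e-10) and by the same amount in IBET858-treated cultures, 0.98 ± 0.0746 (adjusted p = 1.04e-09). On the arrays it was 1.32, 1.09 and 1.06 with BDNF and IBET858, 0.81, 0.78 and 0.89 with BDNF, 0.07, 0.14 and 0.31 with IBET858, and -0.20, -0.13 and -0.14 with DMSO, so the groups did not overlap. Col10a1, a network-forming collagen of growth cartilage, rose with BDNF at 2 h by 0.59 ± 0.0875 (adjusted p = 2.09e-05). It rose again when IBET858 was added to BDNF, by 0.64 ± 0.0875 at 2 h (adjusted p = 5.23e-06) and 0.45 ± 0.0875 at 12 h (adjusted p = 0.000174). Col7a1, the anchoring fibril collagen, was higher with IBET858 at 12 h by 0.66 ± 0.0825 (adjusted p = 8.06e-07), and in BDNF with IBET858 it was lower than in IBET858 by -0.52 ± 0.0825 (adjusted p = 2.8e-05).

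Other collagens fell. Col23a1, a transmembrane collagen, fell with BDNF at 12 h by -0.81 ± 0.109 against DMSO (adjusted p = 2.88e-06) and by -0.72 ± 0.109 in IBET858-treated cultures (adjusted p = 1.59e-05). Its 3 probe sets correlated with each other at 0.908 to 0.917. Col4a2, a chain of the main basement membrane collagen, fell with BDNF at 2 h by -0.43 ± 0.0994 (adjusted p = 0.00193). Of the 20 chains outside the fibrillar and basement membrane groups, IBET858 at 12 h called 2 higher and 6 lower against DMSO, and 1 higher and 8 lower against BDNF. Over all genes these comparisons called 22.9% higher and 25.8% lower, and 21.1% higher and 25.6% lower, and the counts were not tested against these shares. Among the fibrillar collagens of connective tissue, Col3a1 was lower with IBET858 at 12 h by -0.37 ± 0.107 (adjusted p = 0.00651). Col5a2, a chain that joins such fibrils, was lower at 12 h with IBET858 by -0.54 ± 0.144 (adjusted p = 0.00349) and with BDNF by -0.50 ± 0.144 (adjusted p = 0.00733), and without DMSO replicate 1 the second was -0.356 (adjusted p = 0.0673). Col1a2 was not called in the 6 comparisons, and Col1a1 was called once, with 0.20 ± 0.0621 for BDNF with IBET858 against BDNF at 2 h (adjusted p = 0.0173). That call ended without BDNF replicate 1 or replicate 1 or 3 of the combination, where the adjusted p was at most 0.12.

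**Figure D5:**
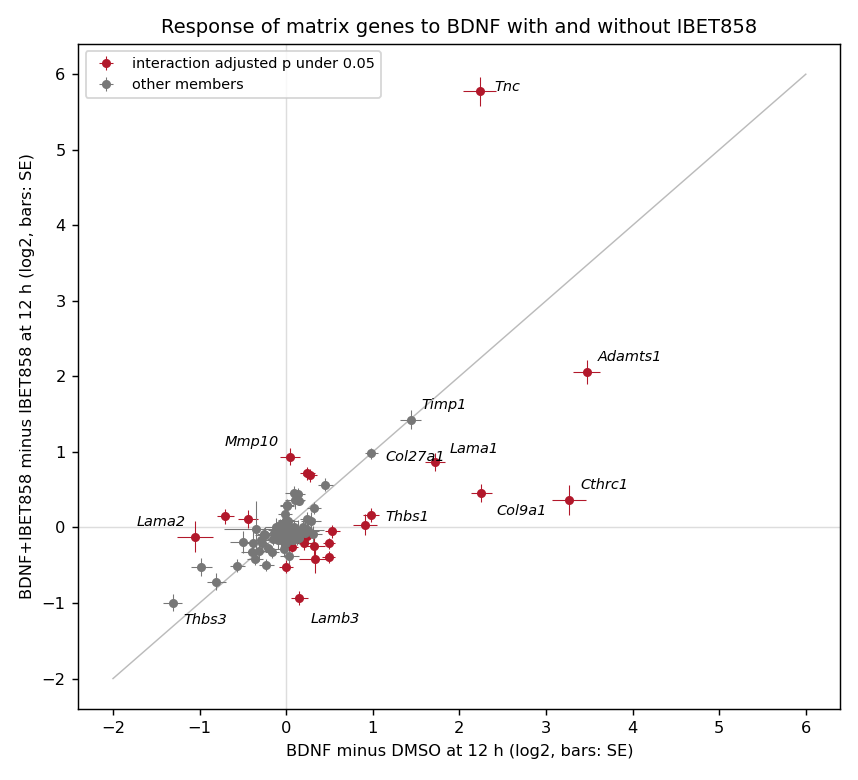
Change with BDNF at 12 h without IBET858 (horizontal, BDNF minus DMSO, log2) and with it (vertical, BDNF with IBET858 minus IBET858, log2) for the 102 matrix genes; bars are the SE, red marks an interaction at adjusted p under 0.05, and the line marks equal change. Tnc lies far above the line at 2.23 and 5.78, Timp1 and Col27a1 lie on it, and Cthrc1, Col9a1, Lama1 and Adamts1 lie below it.

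Among the 10 laminin chains, the alpha chains Lama1 and Lama2 moved in opposite directions with BDNF. Lama1, the alpha chain of the pial and embryonic basement membrane, was 0.32, 0.39 and 0.45 with BDNF and IBET858 at 12 h, 1.83, 1.41 and 1.43 with BDNF, -0.27, -0.62 and -0.55 with IBET858, and -0.19, 0.01 and -0.32 with DMSO. BDNF arrays were highest, followed by the combination, with no overlap between them or with the rest. BDNF raised it by 1.72 ± 0.114, 3.3-fold (adjusted p = 1.13e-10), and the interaction was -0.86 ± 0.161 (adjusted p = 0.00083).

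Lama2 was -0.96, -1.27 and -1.07 with BDNF and IBET858 at 12 h, -1.13, -0.76 and -0.99 with BDNF, -1.09, -0.94 and -0.89 with IBET858, and 0.51, 0.00 and -0.22 with DMSO. The 3 treatments overlapped and lay below DMSO. BDNF lowered it by -1.05 ± 0.205 (adjusted p = 0.000232) and IBET858 by -1.07 ± 0.205 (adjusted p = 0.000155), both against the same DMSO arrays, of which replicate 1 was the highest. The interaction, 0.93 ± 0.29 (adjusted p = 0.0321), was 0.724 without DMSO replicate 1 (adjusted p = 0.103), and leaving out IBET858 replicate 1, BDNF replicate 1 or 3, or replicate 1 or 3 of the combination ended the call too.

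Lamb3, the beta chain of the laminin of epithelial anchoring, was high with IBET858 only. At 12 h Lamb3 was 0.09, -0.08 and -0.21 with BDNF and IBET858, -0.05, 0.07 and 0.11 with BDNF, 0.85, 0.88 and 0.87 with IBET858, and 0.00, -0.37 and 0.04 with DMSO. IBET858 raised it by 0.97 ± 0.0952 against DMSO (adjusted p = 2.17e-08), and BDNF lowered it by -0.93 ± 0.0952 in IBET858-treated cultures (adjusted p = 7.66e-08). Lamc1, the gamma chain shared by most laminins, differed between the combination and BDNF in opposite directions at the 2 times. BDNF raised it at 2 h by 0.59 ± 0.0786 (adjusted p = 5.44e-06), and against BDNF the combination was lower by -0.60 ± 0.0786 at 2 h (adjusted p = 3.12e-06) and higher by 0.67 ± 0.0786 at 12 h (adjusted p = 2.67e-07). Against DMSO, IBET858 gave 0.17 ± 0.0786 at 2 h (adjusted p = 0.178) and raised it by 0.38 ± 0.0786 at 12 h (adjusted p = 0.000306).

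The interaction of BDNF and IBET858 called 4 members at 2 h, all lower (3.92%, against 8.4% of all genes, of which 3.11% were positive and 5.29% negative), namely Thbs1, Cthrc1, Adamts1 and Lamc1. At 12 h it called 23 members, 7 higher and 16 lower (22.5%, against 16.2% of all genes). Of all genes 8.94% were called with a positive and 7.24% with a negative interaction at 12 h, and of the members 6.86% and 15.7%. The positive interactions with the largest values were those of Tnc, Lama2, Mmp10, Adamts20 and Mmp11, and the negative ones those of Cthrc1, Col9a1, Adamts1, Lamb3 and Mmp17. BDNF in IBET858-treated cultures called 12 members at 2 h, 10 higher and 2 lower (11.8%, against 21.2% of all genes), and 33 at 12 h, 17 higher and 16 lower (32.4%, against 39.3% of all genes). Of all genes it called 6.44% higher and 14.7% lower at 2 h, and 16.1% higher and 23.2% lower at 12 h. The BDNF arrays enter BDNF against DMSO and, with the opposite sign, the combination against BDNF, so these comparisons are not independent.

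Time in DMSO alone called 8 members, 1 higher and 7 lower at 12 h than at 2 h (7.84%, against 7.54% of all genes, of which 3.91% were higher and 3.63% lower). Besides Tnr and Mmp17, Col23a1 was lower by -0.52 ± 0.109 (adjusted p = 0.00511), Adamts8 by -0.48 ± 0.107 (adjusted p = 0.00815) and Adamts1 by -0.62 ± 0.16 (adjusted p = 0.0195). For Adamts1 the change was -0.935 without DMSO replicate 1 at 2 h, and the call ended without DMSO replicate 2 or 3 at 2 h or replicate 1 or 2 at 12 h, with an adjusted p of at most 0.112. Col11a2, a fibrillar chain of cartilage, was higher by 0.39 ± 0.0846 (adjusted p = 0.00691), a call that ended without DMSO replicate 2 at 12 h (adjusted p = 0.0515). The IBET858 effect differed between 12 h and 2 h for 21 members, 5 with a higher and 16 with a lower value at 12 h (20.6%, against 33.1% of all genes). Of all genes 15.8% had a higher and 17.4% a lower IBET858 effect at 12 h. The BDNF effect differed for 31 members, 16 higher and 15 lower (30.4%, against 24.8% of all genes, with 12.9% higher and 11.9% lower).

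No call was made in the 6 comparisons for 37 members (36.3%, against 26.9% of all genes). The range of their 8 group means had a median of 0.273 log2 units and was largest for Adamtsl3, at 1.07. They included 7 of 11 basement membrane and network collagens, 8 of 18 MMPs, 7 of 20 other collagens, 4 of 11 fibrillar collagens and 4 of 10 laminins. Of the 102 members, 58 had more than 1 probe set, and not all probe sets of a gene moved together. For Adamts3, which processes procollagen, the IBET858 change at 12 h was -1.47 on 1 probe set and -0.10 on the other. For Lama3, the alpha partner of Lamb3, it was -0.84 and -0.03.

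Other matrix genes changed with the same treatments. Among 31 genes of proteoglycans and hyaluronan, BDNF against DMSO called 3 higher and 1 lower at 2 h and 7 higher and 9 lower at 12 h, with medians of 0.028 and -0.005. Of all genes BDNF called 9.79% higher and 18.1% lower at 2 h, and 16.9% higher and 24.2% lower at 12 h. The list counts here and below were not tested against the shares of all genes. Acan, the aggrecan core protein that Adamts1 cleaves, rose with BDNF by 1.66 ± 0.227 at 2 h (adjusted p = 6.89e-06) and 1.93 ± 0.227 at 12 h (adjusted p = 4.68e-07). IBET858 lowered it against BDNF by -1.15 ± 0.227 at 12 h (adjusted p = 0.000189). Vcan, versican, fell with BDNF at 12 h by -0.87 ± 0.0784 (adjusted p = 1.15e-08) and with IBET858 by -0.84 ± 0.0784 (adjusted p = 1.21e-08).

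Among 24 basement membrane and matricellular genes, Ccn1, an immediate early matricellular gene, rose with BDNF by 2.82 ± 0.0619 at 2 h (adjusted p = 4.36e-18) and by 1.20 ± 0.0619 at 12 h (adjusted p = 2.24e-12). IBET858 added to BDNF raised Ccn1 further at 12 h, by 1.34 ± 0.0619 (adjusted p = 1.98e-13). Mgp, matrix Gla protein, rose with BDNF at 12 h by 1.58 ± 0.245 (adjusted p = 1.79e-05) and was lower with IBET858 added, by -2.49 ± 0.245 (adjusted p = 1.99e-08). Fbn2, fibrillin of developing tissue, fell with IBET858 at 12 h by -1.80 ± 0.0938 (adjusted p = 1.82e-12). In this list IBET858 at 12 h called 5 higher and 9 lower (median -0.081), and BDNF called 6 higher and 3 lower (median 0.003). Of all genes IBET858 at 12 h called 22.9% higher and 25.8% lower, and BDNF 16.9% higher and 24.2% lower.

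Among 18 measured ADAM proteases and regulators of matrix proteolysis, BDNF at 12 h called 4 higher and 9 lower (median -0.174). Beside the counts of this paragraph, BDNF at 12 h called 16.9% of all genes higher and 24.2% lower, and IBET858 22.9% and 25.8%. Plat, tissue plasminogen activator, rose with BDNF by 2.46 ± 0.0821 at 2 h (adjusted p = 2.63e-15), and IBET858 added to BDNF raised it further at 12 h, by 2.20 ± 0.0821 (adjusted p = 8.56e-15). Reck, a membrane-bound MMP inhibitor, fell with BDNF by -0.71 ± 0.114 at 2 h (adjusted p = 4.89e-05) and -0.90 ± 0.114 at 12 h (adjusted p = 1.17e-06). Adam17, a sheddase, was higher with IBET858 by 1.11 ± 0.0893 at 12 h (adjusted p = 1.25e-09). Among 20 collagen-processing genes, BDNF at 12 h called 4 higher and 5 lower and IBET858 2 higher and 4 lower. P4ha1, a prolyl hydroxylase subunit, rose with IBET858 at 12 h by 1.28 ± 0.0942 (adjusted p = 3.47e-10), and Plod2, a lysyl hydroxylase, rose with BDNF at 2 h by 1.22 ± 0.101 (adjusted p = 5.99e-09). Among 18 integrins, BDNF at 12 h called 3 higher and 3 lower and IBET858 3 higher and 4 lower. Itgb8 fell with IBET858 at 12 h by -1.90 ± 0.128 (adjusted p = 8.7e-11), and Itga6, a laminin receptor subunit, rose with BDNF at 12 h by 1.23 ± 0.101 (adjusted p = 2.62e-09).

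Many matrix genes are made by glia and vessel cells, so the markers of these cells are given beside the member results. Of all genes IBET858 at 12 h called 22.9% higher and 25.8% lower, and BDNF at 12 h 16.9% and 24.2%. The combination against BDNF at 2 h called 12.2% of all genes higher and 14.9% lower. Of 8 astrocyte markers, IBET858 at 12 h called 1 higher and 3 lower, among them Aqp4 by -1.21 ± 0.176 (adjusted p = 5.95e-06), and BDNF at 12 h called 2 lower. Their mean over the list lay between -0.259 and -0.251 on arrays of BDNF with IBET858 at 12 h, between -0.178 and -0.057 with BDNF, between -0.33 and -0.18 with IBET858, and between -0.082 and 0.394 with DMSO. Of 10 microglial markers, IBET858 at 12 h called 5 lower and BDNF 4 lower, and the list mean on the 12 h arrays lay between -0.391 and -0.305 with BDNF and IBET858, between -0.258 and -0.143 with BDNF, between -0.34 and -0.197 with IBET858 and between -0.076 and -0.049 with DMSO. Of 11 mural and fibroblast markers, BDNF and IBET858 at 12 h called at most 1 in each direction against DMSO, and of 8 endothelial markers IBET858 called 2 higher and BDNF 1 higher and 1 lower. At 2 h the combination against BDNF called 3 mural and fibroblast markers and 1 endothelial marker higher, Pecam1. Of 7 markers of the oligodendrocyte lineage, IBET858 and BDNF at 12 h each called 1 higher and 2 lower. Of 9 neuronal markers, IBET858 at 12 h called 2 higher and 5 lower, and BDNF 4 higher and 4 lower. The part of these markers in the changes of the members, those that rose as well as those that fell, was not tested.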

How the data were processed

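RNA of 24 samples was measured on Affymetrix arrays. The deposited log2 values were produced by the authors with RMA, per the submitters' processing notes; RMA corrects background, normalizes the arrays to a common distribution and summarises each probe set, so a change in total mRNA per cell would not show. The table states no log base. All 45101 probe sets have a median of 0 over the arrays, within 1e-06, so the values were centred before deposit. Array number limits the precision.

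Genes were named from the platform annotation and RefSeq GRCm38.p6 (34754 of 34958 probe sets matched by Entrez ID), and probe sets of a gene were averaged. One limma 3.58.1 model (R 4.3.3) was fitted over all 18194 genes and 8 groups, with Benjamini-Hochberg adjustment. It was tested on simulated data, and the outcome of that test is not given here. Alternatives are given in the closing section. Named genes were the 5 highest and 5 lowest called members per comparison, the furthest-moving member of each family in comparisons with DMSO, and a fixed set of tenascins, thrombospondins, TIMPs and MMPs with Fn1 and Cthrc1. Further members, named to complete a family, and the genes named from the other matrix lists and marker lists were chosen after their values were seen. Members and lists were chosen with earlier results of these data known.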

Additional observations from a re-analysis of the deposited data

Results flagged for a closer look

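The effect of an agent against DMSO differed between 12 h and 2 h in the time interaction of the limma fit for 31 members with BDNF and 21 with IBET858 (adjusted p under 0.05). Values are the effect at 12 h minus the effect at 2 h, in log2 units, and the effects of both agents use the same DMSO arrays.

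For BDNF the difference was positive for Cthrc1 at 2.2, Col9a1 at 1.99, Lama1 at 1.59, Tnc at 1.36, Timp1 at 1.13, Adamts1 at 1.11 and Col27a1 at 1.03. Smaller positive values were those of Mmp13 at 0.86, Mmp17 at 0.73, Adamtsl1 at 0.62, Lama3 at 0.57, Col4a2 at 0.52, Adamts3 at 0.48, Mmp3 at 0.48, Lamb1 at 0.47 and Col6a1 at 0.42. It was negative for Thbs3 at -1.25, Thbs1 at -1.17, Adamtsl2 at -0.69, Lamc1 at -0.58, Col6a3 at -0.54 and Col23a1 at -0.51. Smaller negative values were those of Col11a2 at -0.41, Adamts20 at -0.39, Col19a1 at -0.38, Col20a1 at -0.35, Adamts4 at -0.34, Col10a1 at -0.34, Adamtsl5 at -0.33, Col6a5 at -0.33 and Timp2 at -0.3.

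For IBET858 the difference was positive for Lamb3 at 0.98, Mmp17 at 0.92, Adamts20 at 0.63, Col7a1 at 0.46 and Col27a1 at 0.29. It was negative for Tnr at -0.94, Adamts1 at -0.93, Cthrc1 at -0.92, Adamtsl2 at -0.9, Adamts3 at -0.7, Col19a1 at -0.66, Mmp11 at -0.54 and Col26a1 at -0.48. Smaller negative values were those of Adamts10 at -0.48, Thbs3 at -0.46, Col9a1 at -0.43, Col6a1 at -0.42, Lama3 at -0.4, Col10a1 at -0.33, Col25a1 at -0.32 and Lamb1 at -0.26. Without DMSO replicate 1 at 2 h the IBET858 difference was -0.598 for Cthrc1, -0.617 for Adamts1 and -0.205 for Col25a1, all still called, and the BDNF difference was -0.238 for Col19a1.

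Leaving out at least 1 single array ended the BDNF call for Col11a2, Col23a1, Col19a1, Col6a5, Mmp3, Adamts4, Col20a1, Adamtsl5, Col10a1 and Adamts20. It ended the IBET858 call for Thbs3, Col27a1, Col10a1 and Col9a1, and leaving out both arrays that stand apart also ended that of Lamb1 and Col25a1.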

How the results depend on the processing

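Counts of called members moved by more than 1.5 times as follows. Array weights gave 23 calls for IBET858 against DMSO at 2 h, 10 for the interaction at 2 h and 20 for DMSO at 12 h against 2 h. Arrays of the same time alone gave 2 for the interaction at 2 h. The DMSO time comparison gave 15 without the 2 arrays that stand apart and 13 without both DMSO arrays numbered 1, a setting chosen after seeing the data. Requiring a 1.5-fold change as well, which can only lower a count, gave at 2 h 3 (IBET858 against DMSO), 6 (BDNF against DMSO), 8 (combination against BDNF) and 4 (combination against IBET858). At 12 h it gave 12, 14, 16 and 11 in the same order and 14 for the interaction. It gave 9 for the change of the IBET858 effect with time, 13 for that of BDNF and 2 for time in DMSO. Shares of all genes at this fold change are not given here.

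Leaving out single arrays gave 4 to 11 calls for IBET858 against DMSO at 2 h, 7 to 14 for the combination against IBET858 at 2 h and 6 to 14 for time in DMSO. For BDNF against DMSO, 11 of 22 calls at 2 h and 24 of 38 at 12 h held in every such refit. For IBET858 against DMSO these were 4 of 7 and 31 of 37, and for the combination against BDNF 9 of 16 and 27 of 35. The interaction at 12 h kept 15 of 23. Of 320 named values, 148 were called, and none of these changed sign under any setting run. Among the uncalled ones, 70 changed sign in at least 1 setting, in 214 of 10168 refits in all. With the replicate number as a block (replicate block), BDNF against DMSO called 22 members at 2 h and 36 at 12 h, and IBET858 7 and 38. The deviations of same-numbered arrays had a median correlation of 0.003 over 84 pairs, with 10 above 0.1 and a maximum of 0.509. Differently numbered arrays had a median of -0.001 over 168 pairs, with 17 above 0.1 and a maximum of 0.339. The numbers were not taken as pairs. A median cannot exclude a shared origin of single pairs, such as the DMSO arrays numbered 1, and this was not tested.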
